A study of Caenorhabditis elegans with 52 samples.

Results

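The cytosolic ribosomal protein genes examined here are 56 genes of the nematode Caenorhabditis elegans named rpl-1 to rpl-36 and rps-0 to rps-25, of 45461 genes in the count tables. They were picked by name, with earlier results of these data known, and 30 encode proteins of the large ribosomal subunit and 26 proteins of the small one. rpl-16 was listed at 0 in all 52 libraries, so 55 of the 56 genes could be tested. Ribosomal proteins surround and stabilise the ribosomal RNAs, and each ribosome takes a single copy of nearly all of them, so that animals make their mRNAs in matched and very high amounts. In C. elegans the growing germline and the embryo it supplies are large consumers of ribosomes, and the mitogen-activated kinase pathway that U0126 blocks also acts in germ cell fate and oocyte growth.

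The libraries were made from polyadenylated RNA of whole young adult hermaphrodites. The groups were a puf-8; lip-1 double mutant (PL), a puf-8 fbf-1 double mutant (PF) and Wild-type N2, so that both mutants carry a lesion in puf-8, a gene for an RNA-binding regulator of the germline. lip-1 encodes a phosphatase that acts against the kinase pathway, and fbf-1 another RNA-binding regulator of the puf-8 family. The labels name no alleles. Worms were sampled untreated or after time in liquid medium with bacteria and either 100 uM U0126, an inhibitor of the kinase MEK dissolved in DMSO, or DMSO alone. PL had 1, 2, 4, 6 and 18 h of treatment, N2 had 1, 2, 6 and 18 h, and PF had 1, 2, 4 and 6 h. Most groups had 2 libraries, the PL groups at 1 h had 3, and each treated PF group had 1. The labels do not say whether libraries of a group came from separate cultures, so every p-value below measures only the spread between these libraries.

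Counts in genes ran from 5.37 to 35.1 per library, in units of 1000000 counts. The mutated genes were low in the mutants so labelled: puf-8 had 3.19 to 31.9 counts per 1000000 counts in genes (CPM) in PL and 3.18 to 10.8 in PF, against 117 to 257 CPM in N2, lip-1 had at most 3.99 CPM in PL against at least 57.9 in N2, and fbf-1 had at most 3.33 CPM in PF against at least 17.7 in N2. lip-1 was low in PF as well, with 2.61 to 8.51 CPM, so its level did not set PL apart from PF. The library labelled N2 untreated replicate 2 is left out of those N2 ranges and went against its label, with 28.6 CPM of puf-8, and its group entered no test. In the PL U0126 library at 2 h labelled replicate 2, 36 genes lay below 0.25 times their lowest value in the other libraries, and the 1 family member among them was rpl-2, at 0.470 CPM there against at least 809 CPM in every other library. rpl-7A was also lowest there, with 181 CPM against at least 635 CPM elsewhere, without being among the 36. In the fit over 50 libraries, this library widened the standard error (SE) of both genes in every comparison. For U0126 against DMSO at 18 h in PL, the SE of rpl-2 was 0.98, and 0.19 without this library. That of rpl-7A was 0.37, and 0.19 without it. A missing call of either gene in that fit therefore says little. Replicates 1 and 2 of both PL groups at 1 h had 2612 to 3056 CPM of molting genes, against 98.1 and 176 CPM in replicate 3.

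The family took 3.76% to 8.23% of all gene counts. In PL the share was 6.31% and 6.75% in untreated worms and 3.76% and 3.90% in DMSO at 18 h, the lowest pair of the series. In PF it was 4.38% and 4.82% in untreated worms, and in N2 it stayed between 5.20% and 7.12% in all 16 libraries from medium. The ratio between the subunits stayed narrow, and the summed counts of the small subunit genes were 0.819 to 0.925 times those of the large subunit genes in every library. The highest ratio was in the PL U0126 library at 2 h labelled replicate 2, which had little rpl-2. Among the other libraries the highest was 0.911. These are whole worms, so that fewer cells of a type and less RNA per cell cannot be told apart in any value given here.

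**Figure D1:**
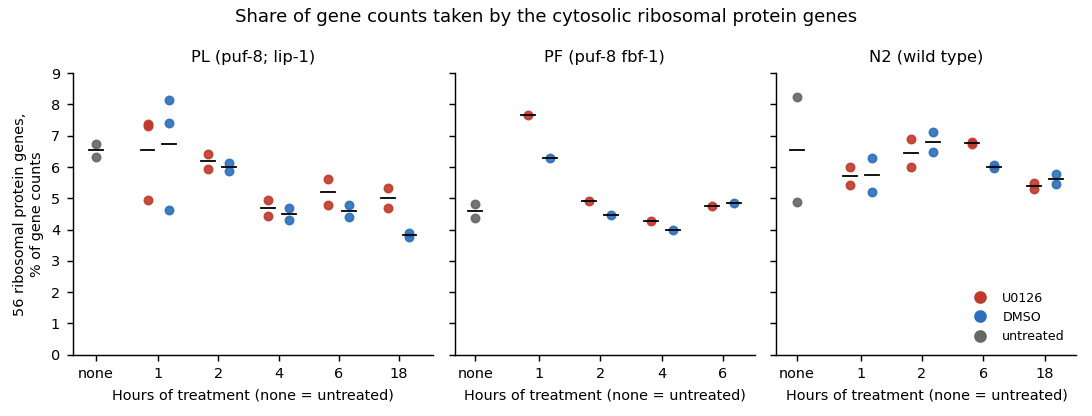
Share of all gene counts taken by the 56 cytosolic ribosomal protein genes, in percent, by hours of treatment in each genotype; each point is 1 library and each bar the mean of a group. At 18 h PL has 4.68% and 5.31% in U0126, above 3.76% and 3.90% in DMSO.

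Per kilobase of annotated exon, rps-25 was the highest of the 55 detected genes, with a mean of 2664 CPM per kb over the libraries. It encodes a small subunit protein that in yeast and human ribosomes is used by some viral initiation elements. rpl-10, whose product completes the peptidyl transferase region late in large subunit assembly, followed with 2447 CPM per kb, then rps-23, a protein of the decoding centre, with 2266, rps-8 with 2078 and rps-4 with 1958. The lowest were rps-22 with 726 CPM per kb, rpl-30 with 820, rpl-26 with 1017, rpl-12, a protein of the stalk base, with 1092, and rpl-7A with 1135. Over the 50 libraries outside the N2 untreated group, the members' levels had a median SD of 0.29 on the log2 scale, from 0.23 to 0.42. The median SD was 0.62 over all 16356 genes tested and 0.71 over the other 298 genes whose mean level reached that of the lowest member. Of those 298 genes, 11.4% had a smaller SD than the members' median.

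The first comparison was between worms in U0126 and worms in DMSO at the same hour, which by the series title bears on competence for a switch of sexual fate. At 18 h, all 55 ribosomal protein genes had a positive fold change in PL, with a median of 0.41 log2, against a median of -0.14 over all genes tested. Of these, 11 passed an adjusted p of 0.05, or 20%, where 21% of all genes tested rose and 29% were called in either direction. In 54 genes both U0126 libraries lay above both DMSO libraries, which was the case for 31.1% of all genes. The share of called members is therefore near the background, while the shift of the median, 0.55 log2 above that of all genes, was 0.46 to 0.56 under every scaling, filter and tool tried.

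Among large subunit genes, rpl-33 (F10E7.7) had 687 and 618 TMM-scaled CPM in U0126, against 479 and 405 in DMSO. rpl-10 (F10B5.1) had 1639 and 1802 in U0126, against 1387 and 1169 in DMSO. rpl-22 (C27A2.2), which encodes a surface protein that yeast can live without, had 580 and 618 in U0126, against 496 and 418 in DMSO. All U0126 values of these genes stood above all DMSO values. The changes were 0.56 log2 for rpl-33 (SE 0.19, edgeR adjusted p = 0.0239), 0.43 for rpl-10 (SE 0.14, edgeR adjusted p = 0.0181) and 0.39 for rpl-22 (SE 0.13, edgeR adjusted p = 0.0200). rpl-23 rose by 0.41 and rpl-35, a protein at the exit of the peptide tunnel, by 0.45. rpl-3 (F13B10.2), near the peptidyl transferase centre, had 2867 and 3024 TMM-scaled CPM in U0126, against 2537 and 2138 in DMSO, and did not pass (0.33 log2, SE 0.17, edgeR adjusted p = 0.163). rpl-5 (F54C9.5), which carries the 5S ribosomal RNA, also did not pass (0.41, edgeR adjusted p = 0.0784), nor did rpl-12 (0.26, edgeR adjusted p = 0.367).

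Among small subunit genes, rps-12 (F54E7.2), which encodes a protein of the beak, had the largest change among the 55 genes. It had 675 and 644 TMM-scaled CPM in U0126, against 490 and 400 in DMSO (0.57 log2, SE 0.21, edgeR adjusted p = 0.0420). rps-19 (T05F1.3), whose human counterpart is mutated in Diamond-Blackfan anaemia, had 684 and 636 in U0126, against 506 and 431 in DMSO (0.49 log2, SE 0.16, edgeR adjusted p = 0.0181). rps-2 (C49H3.11), which lines the mRNA entry channel, had 1332 and 1256 in U0126, against 995 and 817 in DMSO (0.51 log2, SE 0.19, edgeR adjusted p = 0.0428). In each of these genes the U0126 libraries were the higher pair, without overlap. rps-10, rps-15 and rps-24 were the other small subunit genes that passed, at 0.46, 0.41 and 0.44 log2. rps-6 (Y71A12B.1), the target of the S6 kinase, had 1081 and 1182 in U0126, against 924 and 800 in DMSO, and did not pass (0.39 log2, edgeR adjusted p = 0.0927). rps-3 (0.39), rps-0 (0.47) and rps-14 (0.40) did not pass either, with edgeR adjusted p from 0.0713 to 0.123. rps-22 and rpl-13 had changes of 0.56 and 0.55 log2 without passing (edgeR adjusted p = 0.0962 and 0.0751). rps-17 (T08B2.10) alone had overlapping groups, with 481 and 638 in U0126, against 519 and 464 in DMSO (0.19 log2).

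The count of 11 depended on the libraries in the fit. It was 0 without the DMSO library labelled replicate 2, 2 without either U0126 library, 12 without the DMSO library labelled replicate 1, 0 with all 52 libraries in the fit and 30 without the PL libraries at 1 h labelled replicates 1 and 2, where 23.4% of all genes were called as higher. With relative log expression scaling it was 3, with library totals 7 and by DESeq2 6, where 18.5%, 19.7% and 19.4% of all genes were called as higher. Other tissue markers moved with the drug at this hour: 12 oocyte genes summed to 6531 to 8609 CPM in U0126, against 2739 to 3144 in DMSO, 10 genes of dividing germ cells to 2263 to 2625, against 1365 to 1508, 10 intestinal genes to 177076 to 203400, against 256872 to 273068, and 10 muscle genes to 5419 to 5947, against 7973 to 8851. No oocyte, germ cell, intestinal or muscle marker was at 0 in every library of either group, and their part in the result was not tested.

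At earlier hours no member passed in PL. The percentages of all genes called were 0.379% at 1 h, 1.53% at 2 h, 2.08% at 4 h and 2.73% at 6 h. The members' median change was -0.09 log2 at 1 h, 0.14 at 2 h, 0.08 at 4 h and 0.31 at 6 h, where that of all genes was 0.09. At 6 h all 55 fold changes were positive, and 44 genes had both U0126 libraries above both DMSO libraries, against 32.8% of all genes. By edgeR 4 members had an unadjusted p under 0.05 at 6 h, 1 at 2 h and none at 1 h or 4 h, and DESeq2 called none at any of these hours. Without the U0126 library at 2 h labelled replicate 2 the median there was 0.00, and without replicate 1, which leaves the library with little rpl-2, 2 members were called as lower. rpl-22 had 895 and 790 TMM-scaled CPM in U0126 at 6 h, against 654 and 701 in DMSO (0.31 log2, edgeR adjusted p = 0.234).

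In N2, the U0126 comparison at 18 h moved most of the transcriptome, with 59.8% of all genes called. No ribosomal protein gene passed under TMM scaling by edgeR, at an adjusted or an unadjusted p under 0.05. The members had a median of 0.10 log2 against -0.40 over all genes. rpl-3 had 2554 and 2439 TMM-scaled CPM in U0126, against 2152 and 2201 in DMSO, and rpl-9 (R13A5.8) had 765 and 752, against 583 and 622, the largest fitted change of the family in N2, though it did not pass (0.33 log2, SE 0.21, edgeR adjusted p = 0.185). rps-6 had 812 and 755 in U0126, against 767 and 806 in DMSO, and rpl-10 had 1575 and 1458, against 1401 and 1500. The groups did not overlap for rpl-3 and rpl-9 and overlapped for rps-6 and rpl-10. In 28 genes both U0126 libraries lay above both DMSO libraries, where 34.1% of all genes did.

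The N2 call depends on how the libraries are scaled. Relative log expression scaling moved the median of all genes to 0.00 and that of the members to 0.56, with 45 members called as higher, and averaged TMM factors gave 28, no filter on low counts 54 and DESeq2 46, whereas library totals gave a members' median of -0.06 and 0 calls. In the same order, 31.7%, 30.3%, 20.3%, 33.3% and 17.8% of all genes were called as higher in these fits, and 23.3% in the fit with TMM factors. The members stood above the median of all genes by 0.51 to 0.56 log2 under every scaling, by 0.72 without the filter on low counts, and by 0.49 without the PL libraries at 1 h labelled replicates 1 and 2, when 1 member was called. The share of counts, which uses no scaling factor, was 5.49% and 5.29% in U0126, against 5.45% and 5.76% in DMSO. Oocyte markers summed to 15033 to 15251 CPM in U0126, against 8754 to 9007 in DMSO, intestinal markers to 47490 to 47628, against 76312 to 85261, and muscle markers to 1747 to 1826, against 5525 to 6022; their part was not tested.

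At 6 h in N2, 53 of the 55 genes had both U0126 libraries above both DMSO libraries, where 26.9% of all genes did and 4.4% were called. The members' median was 0.19 log2 against -0.08 for all genes. Intestinal markers summed to 52611 to 63331 CPM in U0126, against 81072 to 84567 in DMSO, molting markers to 253 to 298, against 521 to 582, and oocyte markers to 11254 to 11293, against 10006 to 10146; their part was not tested. By edgeR no member had an adjusted or unadjusted p under 0.05, and DESeq2 called none. At 1 h and 2 h no member passed or had an unadjusted p under 0.05 by edgeR and DESeq2 called none, where 0.0673% and 1.09% of all genes were called, and the medians were 0.00 and -0.05. In PF, with a single library per treatment and hour, the fit across 1 to 6 h gave a median of 0.19 for the members and -0.01 for all genes, with no member passing and 0.641% of all genes called; no member had an unadjusted p under 0.05 and DESeq2 called none. rps-3 (C23G10.3) in PF had 2502, 1367, 1062 and 1177 TMM-scaled CPM in U0126 at 1, 2, 4 and 6 h, against 1615, 1140, 963 and 1401 in DMSO. The U0126 library was thus the higher one at 1, 2 and 4 h and the lower one at 6 h.

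Whether the drug response of PL differed from that of N2 was tested as an interaction. No member passed at 6 h, where 0.269% of all genes were called, or at 18 h, where 9.21% were; by edgeR none had an unadjusted p under 0.05, and DESeq2 called none. The members' median difference at 18 h was 0.31 log2, beside 0.30 for all genes, and both turned to -0.23 under relative log expression scaling. The drug difference of the family at 18 h relative to all genes was 0.55 in PL and 0.51 in N2.

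**Figure D2:**
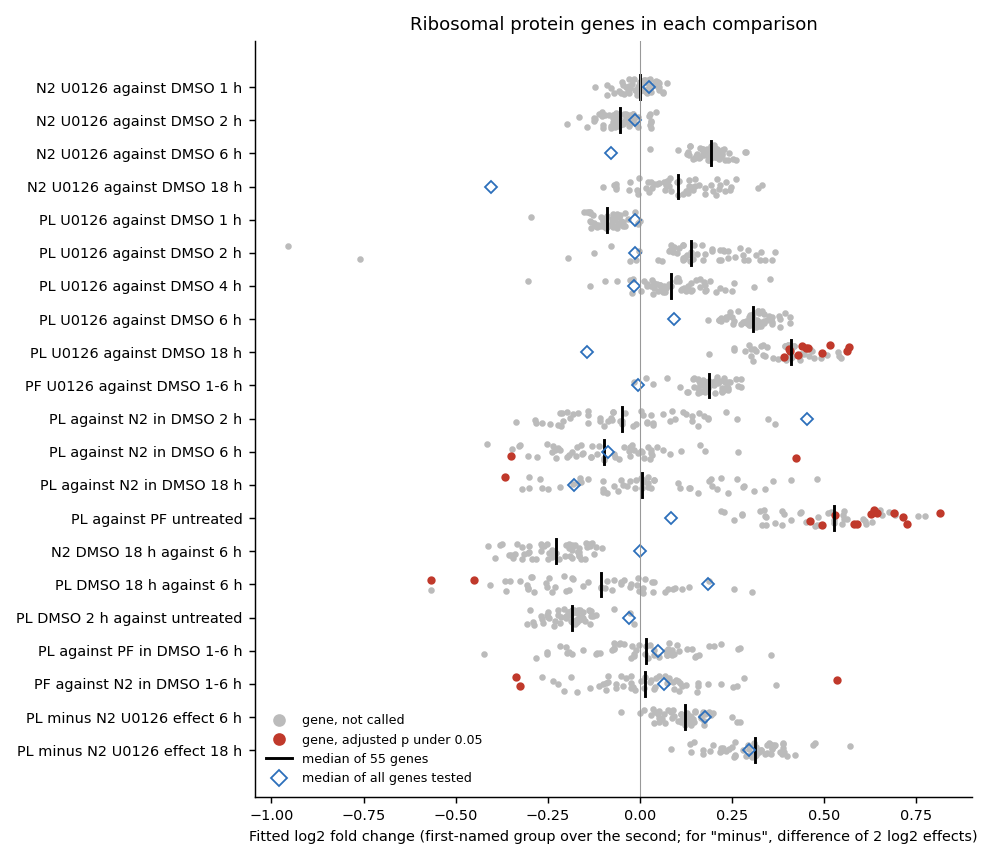
Fitted log2 fold change of each of the 55 tested ribosomal protein genes in the 21 comparisons, the first-named group over the second; black bars are the family medians, diamonds the median of all genes tested, and red points passed an adjusted p of 0.05. The family shifts as a block in PL at 18 h (median 0.41, all genes -0.14) and between untreated PL and PF (0.53, all genes 0.09), and spreads around 0 between PL and N2. The points at the far left in PL at 2 h are rpl-2 and rpl-7A.

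The second comparison was between the genotypes. Untreated PL and PF both carry a lesion in puf-8. All 55 members had a positive fold change in PL over PF, with a median of 0.53 log2 beside 0.09 for all genes, and in all 55 both PL libraries lay above both PF libraries, which held for 37% of all genes. Of the members 12 passed, or 21.8%, all higher in PL, where 4.77% of all genes were called as higher and 5.65% in either direction. Of the other 298 genes that reached the lowest member's mean level, with no upper limit, 16.1% were called in either direction. By an unadjusted p under 0.05 the number was 41.

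The members that passed came from both subunits. rpl-31 (W09C5.6), beside the exit of the peptide tunnel, had 774 and 832 TMM-scaled CPM in PL, against 468 and 446 in PF (0.81 log2, SE 0.22, edgeR adjusted p = 0.0265). rps-7 (ZC434.2) had 1636 and 1611 in PL, against 931 and 1033 in PF (0.72 log2, SE 0.17, edgeR adjusted p = 0.0103). rps-14 (F37C12.9), a protein of the platform, had 1284 and 1401 in PL, against 797 and 839 in PF (0.71 log2, SE 0.19, edgeR adjusted p = 0.0260). These are differences of about the same size in genes whose levels differ, and the groups were far apart in each. rps-1 (F56F3.5) had 1877 and 1935 in PL, against 1121 and 1319 in PF (0.64 log2), rps-6 had 1391 and 1472, against 858 and 986 (0.63 log2), and rpl-5 had 2118 and 2205, against 1340 and 1537 (0.59 log2). rpl-7, rpl-22, rpl-27, rpl-36, rps-17 and rps-23 were the others that passed, at 0.46 to 0.69 log2. rps-11 (0.77 log2) and rps-22 (0.75) had larger differences than most of these and did not pass, with edgeR adjusted p of 0.0587 and 0.0771. The smallest differences were in rpl-18 (Y45F10D.12), with 1235 and 1291 in PL against 1040 and 1128 in PF (0.22 log2, edgeR adjusted p = 0.705), and in rps-13 (0.23 log2, edgeR adjusted p = 0.543).

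The count of 12 was 0 without either untreated PL library or the PF library labelled replicate 1, 5 without the PF library labelled replicate 2, 0 with all 52 libraries in the fit and 34 without the PL libraries at 1 h labelled replicates 1 and 2, where 10% of all genes were called as higher. The members' median stayed between 0.46 and 0.53 under every scaling and between 0.42 and 0.62 with a library left out. Intestinal markers summed to 93897 to 100757 CPM in PL, against 171471 to 173536 in PF, muscle markers to 18717 to 19761, against 9928 to 14868, oocyte markers to 448 to 475, against 188 to 197, and molting markers to 219 to 340, against 66.0 to 74.3, with dpy-5 at 0 in PF; their part in the result was not tested. In DMSO across 1 to 6 h no member passed between PL and PF, where 8.79% of all genes were called, and the medians were 0.02 for the members and 0.05 for all genes; 1 member had an unadjusted p under 0.05 by edgeR and DESeq2 called 1.

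PL and N2 differed in most genes but little in this family. In DMSO at 2 h, 71.2% of all genes were called and no member, at 6 h 66.2% and 2 members, and at 18 h 56.1% and 1 member. By direction, 29.9% of all genes were called as higher in PL and 36.3% as lower at 6 h, where 1 member was higher and 1 lower, and 31.7% as lower at 18 h. Of the other 298 genes that reached the lowest member's mean level, with no upper limit, 78.5%, 77.9% and 63.1% were called at these hours. The members' medians were -0.05, -0.10 and 0.00 log2, beside 0.45, -0.09 and -0.18 for all genes. At 2 h, 1 member had an unadjusted p under 0.05 by edgeR, DESeq2 called none, and 1 member was called without the N2 library labelled replicate 2.

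Those medians depend on the scaling: at 6 h the median of the members was 0.18 with relative log expression scaling and -0.39 with library totals, and at 18 h 0.19 and -0.58, with 37 members called as lower from library totals, where 51.1% of all genes were called as lower. The median of all genes moved with it, to 0.17 and -0.37 at 6 h, so that the family median stood -0.01 to 0.01 from that of all genes at 6 h under each scaling, and 0.08 above it without the filter on low counts. At 2 h it stood 0.50 below all genes under each scaling and 0.15 below without the filter on low counts. At 18 h it stood 0.18 to 0.19 above under each scaling and 0.25 above without the filter. The scaling-free share of counts was 6.12% and 5.86% in PL, against 7.12% and 6.48% in N2 at 2 h, and 3.90% and 3.76% in PL, against 5.45% and 5.76% in N2 at 18 h. With the major sperm protein (msp) genes and the 50 most abundant genes outside the family left out of the denominator, the share in PL was 1.04, 0.99 and 0.93 times that in N2 at 2, 6 and 18 h. PL and N2 also differed in tissue markers at 2 h, where oocyte genes summed to 508 to 610 CPM in PL, against 11274 to 11762 in N2, and sperm genes to 1608 to 1913, against 104 to 108, with spe-42 at 0 in N2; their part was not tested.

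The members that passed were at small differences. rps-25 (K02B2.5) had 1123 and 1118 TMM-scaled CPM in PL in DMSO at 6 h, against 809 and 863 in N2 (0.42 log2, SE 0.18, edgeR adjusted p = 0.0420). rps-1 had 1115 and 1236 in PL, against 1478 and 1521 in N2 (-0.35 log2, SE 0.15, edgeR adjusted p = 0.0402). rps-19 had 506 and 431 in PL at 18 h, against 579 and 629 in N2 (-0.37 log2, SE 0.16, edgeR adjusted p = 0.0493). The groups did not overlap in these 3 genes, but leaving out any 1 of the 4 libraries at 6 h took the count there to 0, and leaving out either N2 library or the PL library labelled replicate 2 took the count at 18 h to 0. With relative log expression scaling 3 members were called as higher and 0 as lower at each of these hours, so that rps-1 and rps-19 did not pass there. With the replicate number as a block 0 members were called at 18 h, which ends the call of rps-19. PF and N2 in DMSO across 1, 2 and 6 h gave rpl-18 as higher (0.53 log2) and rpl-21 (-0.34) and rps-7 (-0.32) as lower, where 74.3% of all genes were called, 36.4% as higher and 37.9% as lower; the ranges of the groups overlapped in each. With relative log expression scaling 3 members were called there, all higher, and with library totals 15, all lower. No share of all genes is given for these fits, so the counts show only that the calls depend on the scaling. The 3 calls became 0 without the PF library at 6 h, the N2 library at 2 h labelled replicate 2 or either N2 library at 6 h, 1, 2 and 4 without other N2 libraries, 6 higher without the PF library at 2 h and 8 lower without the PF library at 1 h.

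Because a scaling factor moves all members alike, their order within a library does not depend on it, and each gene was also set against the family median of its own library. Between PL and N2 in DMSO, as the mean of 2, 6 and 18 h, the genes most above the family were rps-25 (0.30 log2), rpl-31 (0.27), rps-22 (0.24), rps-16 (0.22) and rpl-2 (0.22). The genes most below were rps-19 (-0.29), rps-9 (-0.29), rps-13 (-0.22), rpl-21 (-0.20) and rpl-1 (-0.19). rps-9, which binds early in small subunit assembly, stood 0.21 to 0.34 above the family median in the 6 PL libraries, against 0.48 to 0.63 in the 6 N2 libraries. rpl-31 stood 0.55 to 0.74 below the median in those PL libraries, against 0.76 to 1.00 below in N2. Neither gene's ranges overlapped, but both genes were picked for this difference, so the separation is a description only. Among the genes just named, rps-22, rps-16 and rps-13 had overlapping ranges. Some genes not named there, such as rpl-20, rps-0 and rps-8, also had ranges without overlap.

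rps-25 varied with the hour. Its relative level was 0.12 and 0.32 in PL in DMSO at 2 h, 0.57 and 0.89 at 4 h, 0.62 and 0.41 at 6 h and 0.15 and 0.25 at 18 h. In N2 in DMSO at 2, 6 and 18 h it lay between -0.06 and 0.06, below every one of those PL values. It was 0.96 in the PL DMSO library at 1 h labelled replicate 3, against 0.03 and 0.24 in replicates 1 and 2, and 0.89 in the library labelled N2 untreated replicate 2.

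With U0126 at 18 h in PL, rps-12 (0.16), rps-22 (0.16) and rpl-33 (0.15) differed most upward from the family and rps-17 (-0.24), rpl-30 (-0.16) and rpl-12 (-0.16) most downward. In N2 these were rpl-9 (0.22), rpl-2 (0.20) and rps-10 (0.14) above and rpl-12 (-0.22), rps-17 (-0.19) and rpl-27 (-0.18) below. rps-17 and rpl-12 thus stood among the lowest in both genotypes, which share no library. Across the 55 genes the differences had a Spearman correlation with exon length of 0.01, -0.32 and 0.29 between PL and N2 at 2, 6 and 18 h, 0.27 for the drug in N2 and 0.01 for the drug in PL. These correlations are across genes of the same libraries, and are given as a description.

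**Figure D3:**
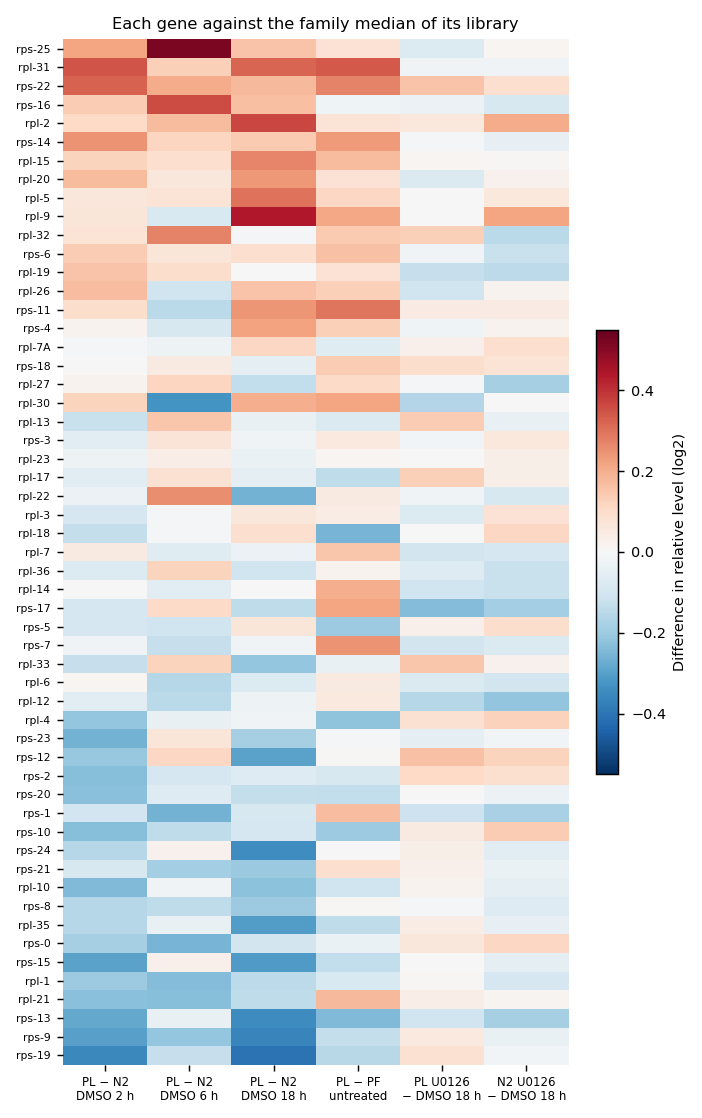
Difference in relative level (log2 CPM of a gene minus the family median of its library) for each of the 55 genes, in 6 contrasts of group means; red is higher in the first-named group. Genes are ordered by the mean of the PL minus N2 columns, from rps-25 (0.30) at the top to rps-19 (-0.29) at the bottom.

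The third comparison was over time. In DMSO at 18 h against 6 h, 2 members were lower in PL, where 19.9% of all genes were called and 2.78% as lower. rpl-22 had 496 and 418 TMM-scaled CPM at 18 h, against 654 and 701 at 6 h (-0.57 log2, SE 0.13, edgeR adjusted p = 0.0017). rps-15 (F36A2.6), a protein of the head near the decoding centre, had 545 and 459 at 18 h, against 707 and 665 at 6 h (-0.45 log2, SE 0.15, edgeR adjusted p = 0.0311). Both genes were also among those higher in U0126 at 18 h, but both comparisons use the PL DMSO libraries at 18 h. The members' median was -0.11 beside 0.19 for all genes, and 0.29 to 0.31 below it under each scaling; relative log expression scaling called 13 members as lower, averaged TMM factors 10 and DESeq2 17, where 5.96%, 4.7% and 8.19% of all genes were called as lower. With either library at 6 h or the one at 18 h labelled replicate 2 left out, 1 member was called. Oocyte markers summed to 2739 to 3144 CPM at 18 h, against 1369 to 1429 at 6 h, markers of dividing germ cells to 1365 to 1508, against 704 to 742, sperm markers to 528 to 738, against 1049 to 1171, and intestinal markers to 256872 to 273068, against 204673 to 206465; their part was not tested.

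In N2, both libraries at 18 h lay below both at 6 h in all 55 members, which held for 34.6% of all genes. No member passed, where 16.6% of all genes were called; 1 had an unadjusted p under 0.05 by edgeR, and DESeq2 called 13 as lower, where it called 18.8% of all genes as lower. The members' median was -0.23 beside 0.00 for all genes. Neuronal markers summed to 873 to 878 CPM at 18 h, against 326 to 353 at 6 h, muscle markers to 5525 to 6022, against 3591 to 3873, and oocyte markers to 8754 to 9007, against 10006 to 10146; their part was not tested. At 2 h in DMSO against untreated worms, PL members had a median of -0.18 beside -0.03, with 50 lower without overlap against 31.8% of all genes. None passed where 3.01% of all genes were called, none had an unadjusted p under 0.05, and DESeq2 called none.

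Outside the 56 genes, 27 further cytosolic ribosomal protein genes were measured, among them pairs of gene copies. rpl-11.1 and rpl-11.2 encode the protein that joins the 5S ribosomal RNA with RPL-5, and rpl-11.1 was found in C. elegans genetics to be needed for germline proliferation. The copies of a pair are nearly alike in sequence, so the authors' counting could have divided their reads unevenly. In PL rpl-11.1 had 296 to 663 TMM-scaled CPM, except in U0126 at 18 h, with 800 and 880, against 446 and 381 in DMSO. In N2 in medium it had 882 to 1203, except in DMSO at 18 h, with 541 and 508. It rose with U0126 at 18 h in PL by 1.02 log2 (SE 0.14, edgeR adjusted p = 2.40e-06) and in N2 by 0.80 (SE 0.14, edgeR adjusted p = 2.72e-05).

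rpl-11.2 went the other way between the genotypes. It was higher in PL than in N2 in DMSO by 1.63 log2 at 2 h (SE 0.18, edgeR adjusted p = 1.50e-08), where rpl-11.1 was lower by 1.68 (a change of -1.68, SE 0.14, edgeR adjusted p = 6.80e-11). As a share of the pair, which needs no scaling, rpl-11.2 made up 50.8% to 71.9% in PL before 18 h and 55.1% to 71.5% in PF, against 12.2% to 18.2% in N2 before 18 h with the library labelled N2 untreated replicate 2 left out. At 18 h the share in PL was 26.6% and 25% in U0126, against 46.1% and 46.4% in DMSO. In N2 at 18 h it was 12.1% and 12.4% in U0126, against 39.3% and 44.1% in DMSO. The drug change of rpl-11.2 differed between the genotypes by 1.27 log2 (SE 0.25, edgeR adjusted p = 0.00293).

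rpl-25.1 and rpl-25.2, whose product sits at the exit of the peptide tunnel, split in the same way. rpl-25.1 was higher in PL than in N2 in DMSO by 2.11 log2 at 2 h, 1.53 at 6 h and 0.93 at 18 h, and rpl-25.2 was lower at 2 h (-0.85) and 6 h (-0.98). With U0126 at 18 h, rpl-25.2 rose in PL by 0.74 (SE 0.22, edgeR adjusted p = 0.0112) and in N2 by 0.52 (SE 0.22, edgeR adjusted p = 0.0437), while rpl-25.1 fell in N2 (-1.36, SE 0.31, edgeR adjusted p = 0.000573). The elongation factor genes paired in this manner also parted: in PL against N2 at 2 h, eef-1A.2 was higher (1.45) and eef-1A.1 lower (-0.49), and iff-2 was higher (1.84) and iff-1 lower (-1.58), all with adjusted p under 0.05 by edgeR. rpl-42 had 19.4 TMM-scaled CPM on average in PL in DMSO at 2 h, against 0.058 in N2.

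**Figure D4:**
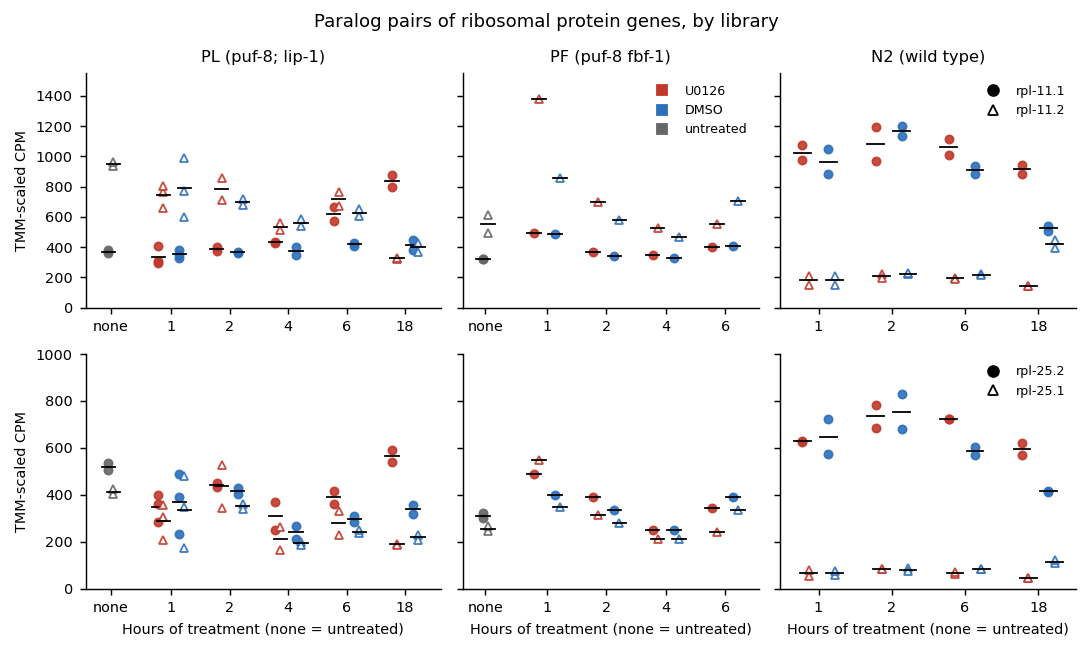
TMM-scaled CPM of rpl-11.1 and rpl-11.2 (top) and of rpl-25.2 and rpl-25.1 (bottom) by hours of treatment in each genotype; each symbol is 1 library, filled for the first copy and open for the second, and bars are group means. In PL rpl-11.1 lies below rpl-11.2 until 18 h, when it reaches 800 and 880 in U0126, and in N2 above it in every library shown.

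Genes that work with ribosomal proteins showed other patterns. Mitochondrial ribosomal protein genes, of which 64 were tested, were lower in PL than in N2 in DMSO in 61, 61 and 53 cases at 2, 6 and 18 h, with none higher and medians of -1.10, -1.02 and -0.76. With U0126 at 18 h, 47 of them rose in PL and none fell (median 0.65), led by mrpl-20 (1.49 log2, SE 0.16, edgeR adjusted p = 1.13e-07). In N2 15 rose and none fell (median 0.23). In N2, relative log expression scaling called 55 of them, and library totals called 2 as higher and 1 as lower.

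Ribosome biogenesis and RNA polymerase I genes, which make and process ribosomal RNA, were lower in PL than in N2 in 26 of 27 cases at 2 h and at 6 h, with medians of -1.32 and -1.10. At 18 h only 8 were lower and 1 was higher, with a median of -0.11. nol-10 led at 2 h (-2.14, SE 0.11, edgeR adjusted p = 2.79e-14), with 31.4 TMM-scaled CPM on average in PL, against 138 in N2. In PL in DMSO, 24 of the 27 were higher at 18 h than at 6 h and none lower, with a median of 0.67 beside 0.19 for all genes, while the ribosomal protein genes had a median of -0.11. With U0126 at 18 h, 9 rose in PL and 17 in N2, with none lower; relative log expression scaling gave 6 higher and 1 lower in PL and 27 higher in N2. Between untreated PL and PF, 9 were higher and none lower.

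Translation initiation genes, of which 25 were tested, were higher with U0126 at 18 h in 21 cases in PL and 16 in N2, and lower in 1 and 3. eif-3.C rose by 0.75 log2 in PL (SE 0.10, edgeR adjusted p = 1.86e-06), and pab-2, a poly(A) binding protein gene, fell in PL (-0.52) and in N2 (-1.11). Between PL and N2 in DMSO at 2 h, 3 were higher and 20 lower. Of 8 elongation genes, 4 rose in PL with U0126 at 18 h and none fell, and in N2 2 rose and 2 fell. Of 14 genes of TOR signalling, the nutrient kinase pathway that controls ribosomal protein synthesis, 8 rose in PL and none fell, and in N2 12 rose and 2 fell; rsks-1, the S6 kinase gene, rose in PL by 0.82 (SE 0.11, edgeR adjusted p = 1.71e-06). The percentages of all genes called in either direction in these comparisons are those given above. Of 16356 genes tested, 6247 were called as higher and 5405 as lower in PL than in N2 at 2 h. In PL in DMSO, 2794 were called as higher at 18 h than at 6 h. With U0126 at 18 h, 1311 were called as lower in PL and 5973 in N2.

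**Figure D5:**
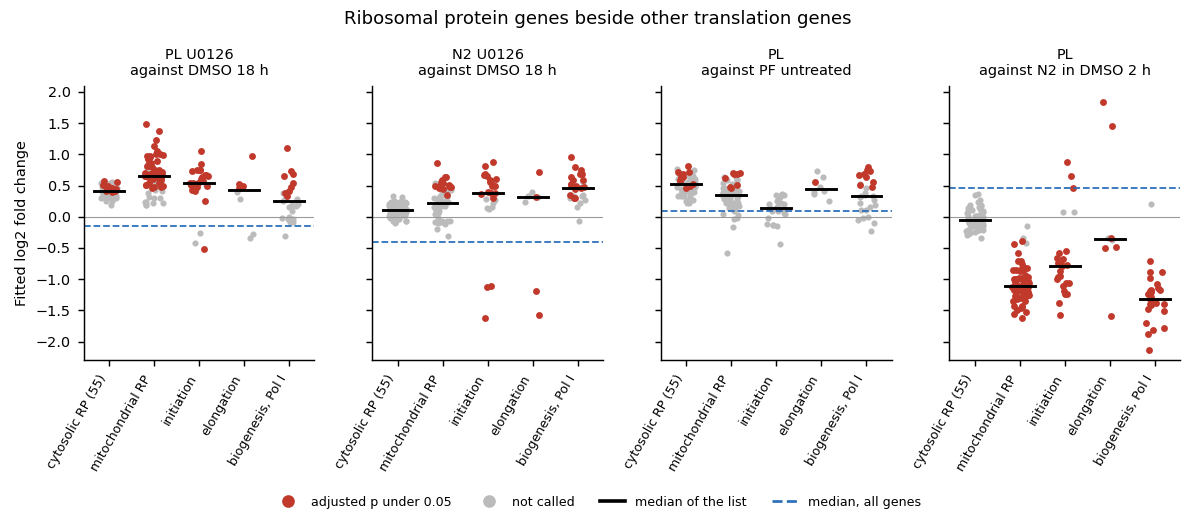
Fitted log2 fold change of the 55 cytosolic ribosomal protein genes beside mitochondrial ribosomal protein, initiation, elongation and ribosome biogenesis genes in 4 comparisons; red points passed an adjusted p of 0.05, black bars are list medians and dashed lines the median of all genes tested. In PL against N2 at 2 h the cytosolic genes lie around 0 (median -0.05) and the mitochondrial ones around -1.10.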

How the data were processed

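Polyadenylated RNA of whole worms was sequenced in 52 libraries. The deposited files hold raw read counts per gene, 1 file per library, over 45461 genes; the authors used CASAVA, TopHat and DESeq with genome build ce10, per the submitters' processing notes, and the sources used here name no counting tool, annotation or strand setting. Names were found for 44935 gene IDs. Lines for reads outside genes (48.2% to 54.8% of the total in the 51 libraries that report them) and for ambiguous reads (0.31% to 0.45%) were left out. The ribosomal protein genes, the other lists and the tests were chosen with earlier results of these data known. Genes were named by size of change, relative level, level per length or known role; members named only because they passed a test, and genes of the other lists, were named after their values were seen.

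Counts were tested with edgeR 4.0.16 (quasi-likelihood F test, R 4.3.3) with TMM scaling and Benjamini-Hochberg adjustment over the genes that reached a CPM of 1 in 2 or more libraries, called at an adjusted p under 0.05. One model over 50 libraries and 28 groups, 16356 genes and 22 residual degrees of freedom, left out the N2 untreated pair; its common dispersion was 0.0626, against 0.129 with all 52 libraries. The 3 comparisons that involve treated PF worms used their own libraries with hour as a factor, on 13893 genes for the drug in PF, 14998 for PL against PF and 14493 for PF against N2, with 3, 8 and 5 residual degrees of freedom. TMM-scaled CPM are counts per 1000000 of the scaled library size. An exact permutation test of 2 against 2 libraries cannot go below a two-sided p of 0.333 and was not used. Alternatives were relative log expression scaling, library totals, TMM without ribosomal protein genes, no filter, DESeq2 1.42.0, all 52 libraries, a replicate block, leaving out libraries, other denominators of the share and the mean in place of the median as reference for the relative level. TMM averaged over every reference library and the fit without the PL U0126 library at 2 h labelled replicate 2 were chosen after seeing the data. In the model over 50 libraries, fits with 1 library left out or with a block kept the TMM factors and the dispersion trend of the full fit. The 3 comparisons with treated PF worms estimated both again when a library was left out. So did the fits without the PL libraries at 1 h labelled replicates 1 and 2. The fit that left the PL U0126 library at 2 h labelled replicate 2 out of every comparison also estimated both again. Same-numbered PL libraries at 1 h deviated together (correlations of 0.731, 0.781 and 0.865). U0126 replicate 1 with DMSO replicate 2 had 0.655, and U0126 replicate 2 with DMSO replicate 1 had 0.690. The values set replicate 3 apart from replicates 1 and 2, and do not settle whether the numbers 1 and 2 pair samples. The fits were tested on simulated data.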

Additional observations from a re-analysis of the deposited data

Results flagged for a closer look

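No cytosolic ribosomal protein gene among the 56 passed the test of a drug response that differed between PL and N2. Over all genes tested, 9.21% passed that test at 18 h, 7.91% higher in PL and 1.3% lower, and 0.269% passed at 6 h. Relative log expression scaling turned those at 18 h to 2.1% higher and 12.7% lower. Outside the 56 genes, the response of rpl-11.2 to U0126 at 18 h differed by 1.27 log2 (SE 0.25, edgeR adjusted p = 0.00293). Of 64 mitochondrial ribosomal protein genes 13 had a higher response in PL at 18 h, but relative log expression scaling gave none higher and 1 lower. Of 8 elongation genes 1 did, iff-2 (1.24 log2, edgeR adjusted p = 0.0161), and of 25 initiation genes 2, ife-4 (1.20) and inf-1 (0.71); relative log expression scaling gave none higher in either list and 6 initiation genes lower. Of the ribosome biogenesis genes, 1 had a higher response in PL at 6 h, nol-6 (0.96), and 4 a lower one at 18 h, pro-1 (-0.75), lpd-7 (-0.77), pro-2 (-0.49) and rbd-1 (-0.60); relative log expression scaling gave 18 lower at 18 h, and library totals none. Of 14 TOR signalling genes 2 had a higher response at 18 h, aak-2 (0.76) and sgk-1 (1.05), where relative log expression scaling gave none higher and 8 lower. Each was a test of the difference between the responses of the genotypes itself.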

How the results depend on the processing

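The number of members called stayed within 1.5 times of the reported count in 240 recomputed values, moved in 59 and changed its leading direction in 11. A comparison without a call in either fit was counted as unchanged, so the 240 include comparisons in which no member passed. The members' median moved by less than the spread between replicates in 277 and by more in 33. Relative levels stayed within the spread in all 22. The only alternative there was the family mean as the reference. It shifts all genes of a contrast alike, so it does not test how far single genes hold. No single gene changed sign where it passed in either fit, but 15 single-gene values changed sign without passing in either. In 72 single-gene values the call was lost, and in 64 a call was gained. The cause of these moves was not tested. The counts in the next paragraphs show how the calls move with the processing. Where no share of all genes is given above for the same fit, a count does not set the members apart.

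With relative log expression scaling the members called were 45 for U0126 in N2 at 18 h, 3 for U0126 in PL at 18 h, 3 higher for PL against N2 at 18 h, 6 for N2 at 18 h against 6 h, 13 for PL at 18 h against 6 h and 3 higher for PF against N2. The medians were 0.56 for U0126 in N2 at 18 h, 0.18 and 0.19 for PL against N2 at 6 and 18 h, -0.35 for PL at 18 h against 6 h, -0.10 and -0.23 for the PL minus N2 drug response at 6 and 18 h and 0.20 for PF against N2. With DESeq2 the counts were 46, 6, 5 higher, 13, 17 and 6 higher in the same order, and 1 for PL against PF in DMSO, and the medians those of that scaling.

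With library totals the counts were 7 for U0126 in PL at 18 h, 7, 20 and 37 for PL against N2 at 2, 6 and 18 h, 7 for PL at 18 h against 6 h and 15 for PF against N2, and the medians -0.39 and -0.58 for PL against N2 at 6 and 18 h and -0.25 for PF against N2. With averaged TMM factors the counts were 28 for U0126 in N2 at 18 h, 3 higher for PL against N2 at 18 h, 1 for N2 and 10 for PL at 18 h against 6 h and 2 higher for PF against N2, and the medians 0.46 for U0126 in N2 at 18 h, 0.093 for PL against N2 at 6 h and -0.069 and -0.012 for the response difference. Without the filter the counts were 54 for U0126 in N2 at 18 h, 1 lower for PL against N2 at 2 h and 1 and 7 higher at 6 and 18 h, 13 for N2 and 5 for PL at 18 h against 6 h, and the medians 0.44 and 0.72 for U0126 in N2 at 6 and 18 h, 0.083 and 0.25 for PL against N2 at 6 and 18 h, -0.48 for N2 at 18 h against 6 h and -0.22 and -0.25 for the response difference.

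With all 52 libraries no member was called for U0126 in PL at 18 h, for PL against N2 at 6 and 18 h or for untreated PL against PF (0 each), and 1 for PL at 18 h against 6 h. Without the PL libraries at 1 h labelled replicates 1 and 2 the counts were 1 for U0126 in N2 at 18 h, 30 for U0126 in PL at 18 h, 5 and 3 for PL against N2 at 6 and 18 h, 34 for untreated PL against PF, 5 for PL at 18 h against 6 h and 1 for PL against PF in DMSO. Outside PL at 1 h, same-numbered libraries had correlations from -0.087 to 0.387. Between U0126 and DMSO at the same hour they were 0.311 and 0.387 in N2 at 1 and 2 h. In PL they were 0.362 and 0.318 at 2 and 18 h, and the other hours of both genotypes gave -0.035 to 0.119. Whether the numbers pair these libraries is not settled, and the main fits used no block. The replicate block gave 11 calls for U0126 in PL at 18 h, 12 for untreated PL against PF and 0 for PL against N2 at 18 h. No paired analysis was possible for comparisons with treated PF because PF had 1 library per group. Of the 11 genes called for U0126 in PL at 18 h, 11 were also called with averaged TMM factors and with the block, 6 with library totals and by DESeq2, 5 without the filter and 3 with relative log expression scaling.

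With 1 library left out, the counts ranged over 0 to 12 for U0126 in PL at 18 h and 0 to 2 at 2 h, 0 to 1 for PL against N2 at 2 and 18 h and 0 at 6 h, 0 to 5 for untreated PL against PF, 1 to 2 for PL at 18 h against 6 h and 0 to 8 for PF against N2, and were 0 elsewhere. The medians ranged over -0.18 to 0.24, -0.14 to 0.04, 0.18 to 0.21 and 0.05 to 0.16 for U0126 in N2 at 1, 2, 6 and 18 h, and -0.25 to 0.10, 0.00 to 0.27, -0.10 to 0.25, 0.19 to 0.43 and 0.30 to 0.53 in PL at 1, 2, 4, 6 and 18 h. They ranged over -0.11 to 0.02, -0.19 to -0.02 and -0.11 to 0.11 for PL against N2 at 2, 6 and 18 h, 0.42 to 0.62 for untreated PL against PF, -0.26 to -0.19 for N2 and -0.22 to 0.00 for PL at 18 h against 6 h, -0.23 to -0.14 for PL at 2 h against untreated, -0.01 to 0.23 and 0.20 to 0.43 for the response difference at 6 and 18 h, 0.07 to 0.31 for U0126 in PF, -0.11 to 0.10 for PL against PF in DMSO and -0.15 to 0.22 for PF against N2.

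With msp genes and the 50 most abundant genes left out of the denominator the share was 5.61% to 11.8%, and the ratios of PL to N2 in DMSO were 1.04, 0.99 and 0.93 at 2, 6 and 18 h.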
